A study of Mus musculus with 24 samples.

Results

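The 100 genes described here had higher RNA levels after loss of Oct4 and after loss of Sox2 in mouse expanded potential stem cells (EPSCs), and changed little when Nanog was lowered. They were chosen by measured values. For each of 3 conditional knockout (cKO) lines, the mean log2(normalized count + 1) of the untreated libraries was subtracted from that of the doxycycline (Dox) libraries. Genes with a Dox mean of at least 100 normalized counts in the Oct4-cKO and Sox2-cKO lines and a difference of less than 0.6 in either direction in the Nanog-cKO line were kept, which left 7998 genes outside the sex chromosomes, collagens and keratins. These were ranked by the smaller of the Oct4-cKO and Sox2-cKO differences, and the 100 highest were taken. They are 100 of the 25476 genes listed for these lines, of which 24007 were tested, and all 100 are protein coding.

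Embryonic stem cells (ESCs) are derived from the early embryo and can form its tissues, and EPSCs are stem cells grown with other sets of inhibitors, for which a wider potential, including placental tissue, has been proposed. The EPSCs here were converted from ESCs. RNA-seq of polyadenylated RNA was made in 24 libraries, 2 per group, in 2 separately normalized tables. The first holds wild-type J1 ESCs and the D-EPSCs and L-EPSCs converted from them in 2 different media. The second holds the lines ZHBTc4 (Oct4-cKO), 2TS22C (Sox2-cKO) and NgcKO (Nanog-cKO), each as ESCs, as untreated L-EPSCs and as Dox-treated L-EPSCs. In all 3 lines, in every group, the endogenous gene is deleted or replaced and the cells live on a transgene that Dox shuts off (tet-off), so the untreated cells are not wild type. Each line is 1 line with its own history, so line and targeted gene cannot be told apart. Dox was given only to L-EPSCs, and the length of treatment for RNA-seq is not given in the sources used here. J1 ESCs were grown in serum medium with 2i and LIF on inactivated mouse embryonic fibroblasts or on gelatin, and the labels do not say which was used for a library. Per the study's methods, both kinds of EPSC were kept without feeder cells for several passages before RNA-seq. The medium of the tet-off ESCs is not given in the sources used here.

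Oct4 (encoded by Pou5f1) and Sox2 bind DNA as partners, and together they keep ESCs undifferentiated. Nanog stabilizes this state but ESCs can be maintained without it. In mouse ESCs, loss of Oct4 or of Sox2 is known to turn cells toward trophectoderm, the outer layer of the blastocyst that gives rise to the placenta, where Gata3, Ascl2, Dlx3 and the imprinted genes Phlda2 and Cdkn1c have established roles.

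The targeted gene was lowered in each line. In Oct4-cKO cells Pou5f1 fell from 6370 ± 73.7 to 173 ± 15.5 normalized counts (SD, n = 2), 2.72% of the untreated level, and in Sox2-cKO cells Sox2 fell to 1.04% of it. In Nanog-cKO cells, Nanog RNA fell only to 34.9% of the untreated level. Nanog fell further than that when the other factors were lost, to 9.41% and 8.99% in the Oct4-cKO and Sox2-cKO lines. Sox2 fell to 4.47% in the Oct4-cKO line, and Pou5f1 to 38.1% in the Sox2-cKO line. These are RNA levels, and the protein is not measured in these tables. The study itself reports, from western blots of Dox-treated cells, loss of the targeted protein in each line, Nanog included. The libraries held 10807631 to 15069899 reads on genes. The labels do not say whether the 2 libraries of a group came from separate cultures, so p-values measure only the spread between these libraries.

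With Dox, the 100 genes were higher by a median of 2.21 on the log2 scale in Oct4-cKO cells (range 1.58 to 5.23) and 2.14 in Sox2-cKO cells (range 1.58 to 3.92), and the Nanog-cKO median was 0.15 (range −0.55 to 0.57). Over the 7998 ranked genes the medians were 0.08, 0.02 and −0.01. Because the choice used these contrasts, the values are a description and no test applies. Called here means an adjusted p below 0.05 in limma and a log2 difference above 0.6. For reference, 13% of all tested genes were called higher and 14.9% lower with Dox in the Oct4-cKO line, 12.2% and 11% in the Sox2-cKO line, and 5.17% and 4.77% in the Nanog-cKO line. Median levels went from 122 in untreated to 618 in Dox-treated Oct4-cKO cells, from 99.4 to 434 in Sox2-cKO cells, and from 105.4 to 105.5 in Nanog-cKO cells.

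**Figure D1:**
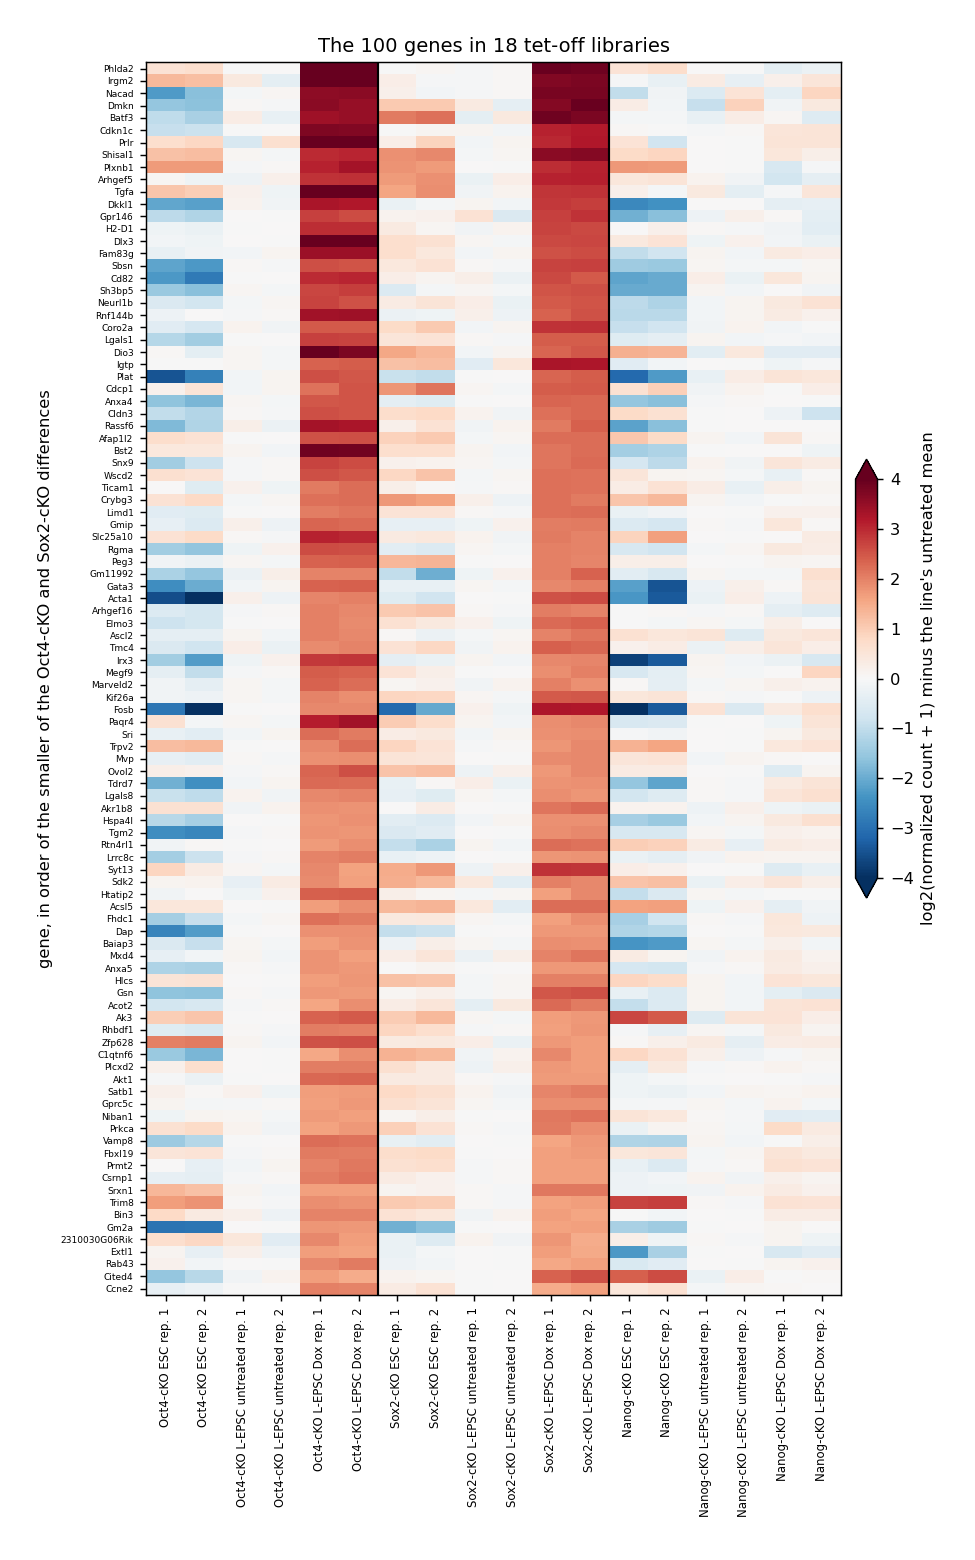
Heat map of the 100 genes (rows, ordered by the smaller of the Oct4-cKO and Sox2-cKO differences) in the 18 tet-off libraries (columns), coloured by log2(normalized count + 1) minus the mean of the line's untreated L-EPSC libraries. Both Dox columns of the Oct4-cKO and Sox2-cKO lines are above the untreated ones for all 100 genes, whose choice used the means of these groups. The Nanog-cKO Dox means lie within 0.6 of the untreated means, a limit that the choice set.

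The size of the difference was not the same in the 2 lines. It was larger in Oct4-cKO cells for 60 genes and in Sox2-cKO cells for 40, and 9 genes differed by more than 1 log2 unit in favour of Oct4-cKO against 2 in favour of Sox2-cKO. The 9 were Phlda2, Prlr, Tgfa, Dlx3, Dio3, Bst2, Rassf6, Slc25a10 and Paqr4, and the 2 were Fosb and Syt13. Fosb, a subunit of the AP-1 transcription factor, measured 97.6 and 99.7 in untreated and 373.1 and 373.0 in Dox-treated Oct4-cKO libraries, against 48.6 and 37.9 untreated and 415.8 and 400.7 with Dox in the Sox2-cKO line. No test was made of the difference between the lines. The smaller of the 2 differences was at least 3 for 9 genes and at least 2 for 40.

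**Figure D2:**
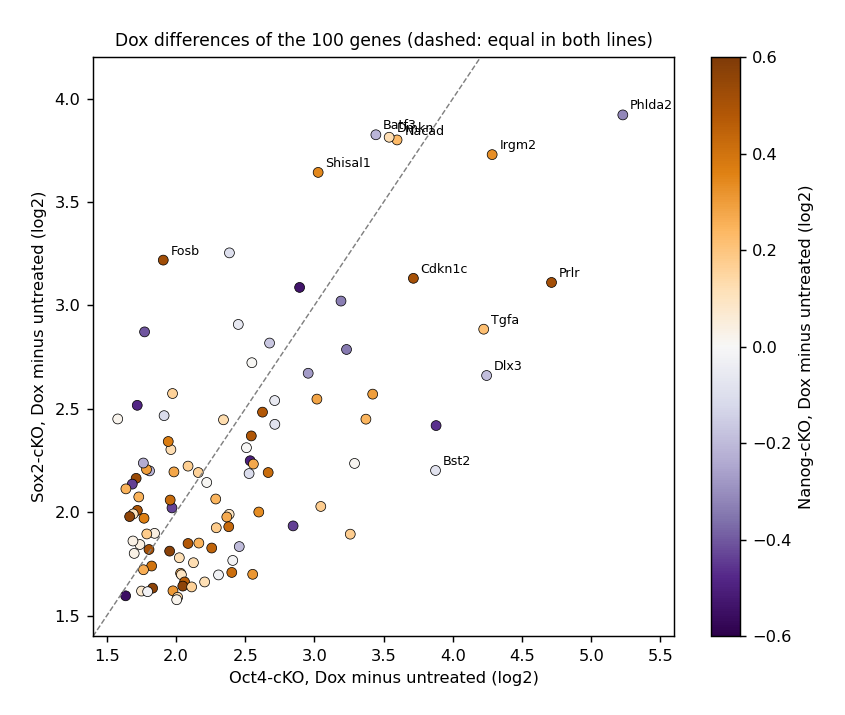
Dox minus untreated difference on the log2(normalized count + 1) scale in Oct4-cKO (x axis) and Sox2-cKO cells (y axis), one point per gene, coloured by the Nanog-cKO difference, with a dashed line where both are equal. Phlda2 lies at 5.23 and 3.92, farthest to the right, and 60 of the points lie on the Oct4-cKO side of the dashed line.

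The list has no natural edge. The last genes inside it were Rab43 (1.589 as the smaller difference), Cited4 (1.579) and Ccne2 (1.577), and the first outside were Lad1 (1.576), Auts2 (1.574) and Pea15a (1.574).

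The imprinted genes, expressed from 1 parental copy and many of them regulators of placental growth, were grouped after their values were seen. Phlda2, which limits placental growth, had the largest difference of all. It measured 251 and 261 normalized counts in untreated and 9544 and 9704 in Dox-treated Oct4-cKO libraries, and 211 and 230 against 3417 and 3272 in the Sox2-cKO line. In the Nanog-cKO line it was 516 and 496 untreated and 388 and 425 with Dox, so the Dox libraries were the lower ones there. Cdkn1c, an inhibitor of cyclin-dependent kinases, lies 40.5 kb from Phlda2 on chromosome 7 and measured 838 and 842 untreated against 11150 and 10930 with Dox in the Oct4-cKO line. In Sox2-cKO cells it was 371 and 314 against 2905 and 3092. In the Nanog-cKO line Cdkn1c also had both Dox libraries above both untreated ones, at 527 and 539 against 364 and 385, a difference of 0.51 that lies inside the limit of the choice.

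Ascl2, a basic helix-loop-helix factor needed for the spongiotrophoblast of the placenta, lies in the same imprinted region and was higher by 1.96 in Oct4-cKO and 2.06 in Sox2-cKO cells. Peg3, a zinc finger gene expressed from the paternal copy, was higher by 2.38 and 1.99. Its levels also set the lines apart before any Dox, at 5400 and 5604 in Sox2-cKO ESCs against 1030 and 974 in Oct4-cKO ESCs and 981 and 973 in Nanog-cKO ESCs. Dio3, which inactivates thyroid hormone, measured 26.6 and 24.3 untreated against 419 and 359 with Dox in the Oct4-cKO line, and 22.7 and 26.9 against 130 and 144 in the Sox2-cKO line. For Phlda2, Cdkn1c and Dio3 the Dox level was thus higher in Oct4-cKO than in Sox2-cKO cells, for Ascl2 the levels of the 2 lines overlapped, and for Peg3 the order was the opposite.

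Among transcription factors of the trophoblast, Gata3 measured 192 and 227 in untreated and 1073 and 1089 in Dox-treated Oct4-cKO libraries, and 136 and 123 against 495 and 529 in Sox2-cKO libraries. In the Nanog-cKO line all 4 L-EPSC libraries lay between 19.2 and 31.5. Dlx3, a homeobox factor of the placenta and of skin, was at 85.2 and 82.6 against 1631 and 1585 in the Oct4-cKO line and at 175 and 156 against 1039 and 1061 in the Sox2-cKO line. Ovol2, a zinc finger factor that maintains epithelial identity, was higher by 2.46 and 1.83. Another transcription factor, Batf3 of the AP-1 family, was not listed as a trophoblast gene. It went from 19.5 and 12.6 to 175 and 187 in Oct4-cKO cells and from 5.4 and 10.0 to 123 and 113 in Sox2-cKO cells. For all 4 the Nanog-cKO libraries with and without Dox overlapped.

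**Figure D3:**
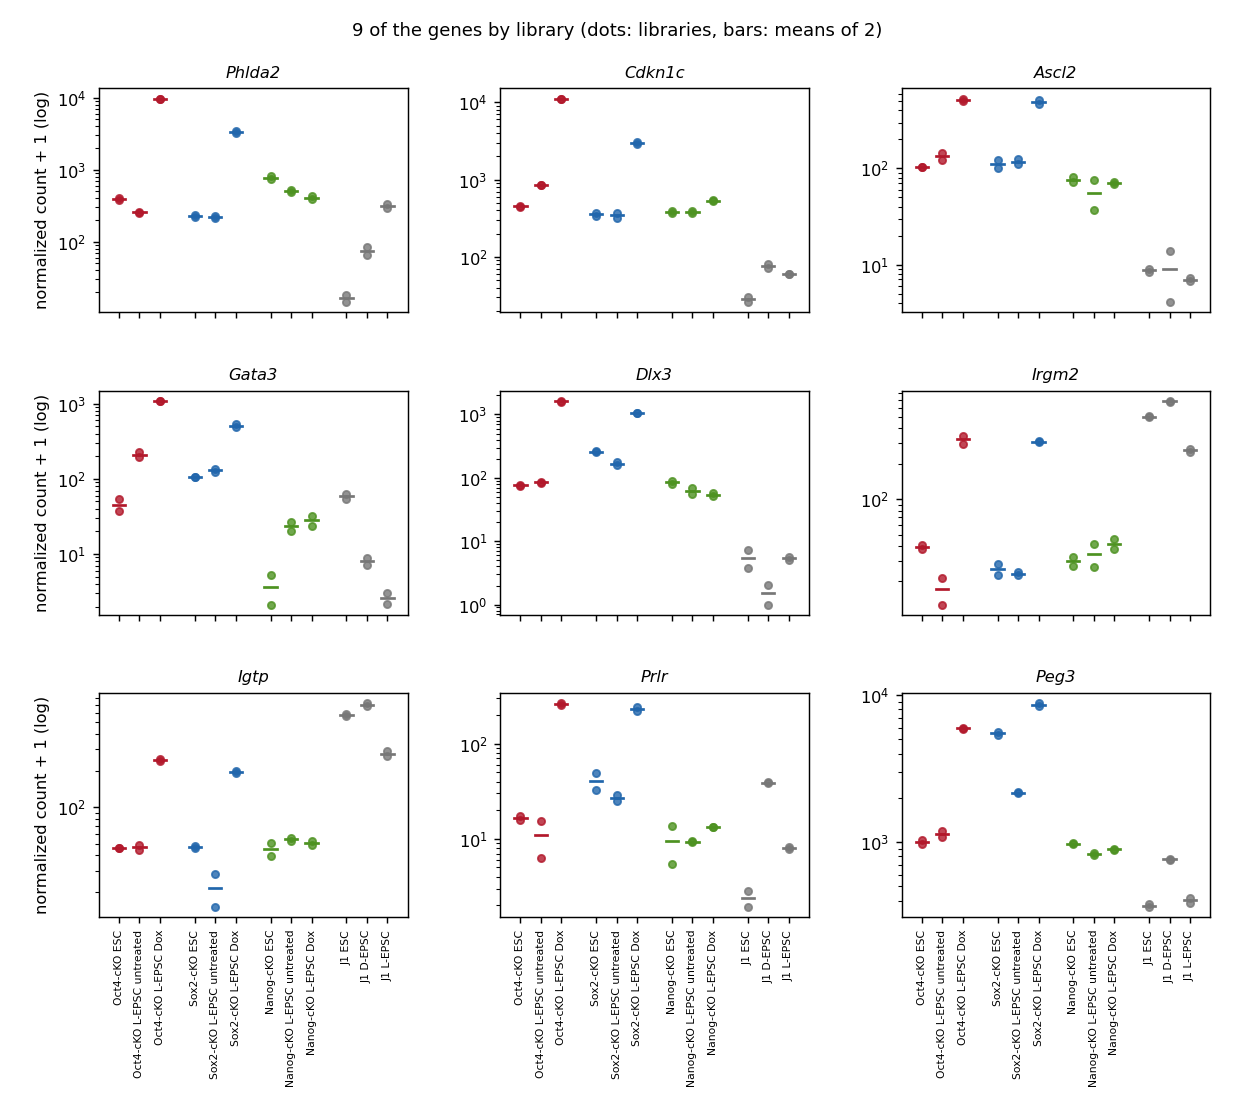
Normalized count + 1 (log axis) of 9 of the genes in every library, with dots for libraries and bars for means of 2; red is Oct4-cKO, blue Sox2-cKO, green Nanog-cKO and grey the separately normalized J1 table. In each panel both Dox libraries of the Oct4-cKO and Sox2-cKO lines lie above the ESC and untreated libraries of their line, and Gata3 is lowest among the tet-off groups in Nanog-cKO ESCs, at 4.18 and 1.12 normalized counts.

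Genes known from the interferon response, also grouped after their values were seen, included Irgm2 and Igtp, immunity-related GTPases that act against intracellular pathogens, Bst2 (tetherin), which holds budding virus at the cell surface, the class I antigen-presenting gene H2-D1, and Ticam1, an adaptor of Toll-like receptors. Irgm2 measured 20.4 and 11.7 untreated against 347 and 295 with Dox in the Oct4-cKO line, and 21.6 and 23.0 against 303 and 312 in the Sox2-cKO line. Igtp measured 47.9 and 43.1 against 237 and 246, and 14 and 26.9 against 197 and 192. The 2 genes lie 7.44 kb apart on chromosome 11 and belong to a family of similar sequences, so reads could be split between them. Bst2 was higher by 3.88 in Oct4-cKO but 2.20 in Sox2-cKO cells, H2-D1 by 2.96 and 2.67, and Ticam1 by 2.16 and 2.19. In the Nanog-cKO line the largest Dox difference among the 5 was 0.33, for Irgm2.

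The letters GAAA, any 2 bases and GAAA again, the core of the interferon-stimulated response element, stood in the promoter windows (RefSeq, GRCm38.p6, 250 bases before to 50 after each start) of Irgm2, Igtp, Bst2 and 4 other members, Coro2a, Extl1, Irx3 and Tdrd7. They are shown for the first 3 because these are known interferon-response genes, with the match in capitals on the strand of the gene. The Irgm2 stretch is chr11:58214903-58214932 on the plus strand, the match ending 55 bases before the start. The Igtp stretch is chr11:58199512-58199541 on the plus strand, ending 25 bases before. The Bst2 stretch is chr8:71537577-71537606 on the minus strand, ending 115 bases before, and a second match overlaps it. The Phlda2 stretch, chr7:143502537-143502566 on the minus strand, is shown because the gene had the largest Dox difference, with its TATAAA in capitals 30 to 25 bases before the start.
Irgm2: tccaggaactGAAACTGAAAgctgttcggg
Igtp: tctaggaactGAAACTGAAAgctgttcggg
Bst2: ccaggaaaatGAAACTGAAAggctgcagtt
Phlda2: gggcggagtcctTATAAAgaccacgccgcg

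Of the 100 genes, 82 had 1 or more windows, 117 in all. The interferon element was in 5.98% of their windows, against 2.54% of the windows of the ranked genes and 3.44% of all 32851 windows. The AP-1 letters TGANTCA were in 10.3%, 4.37% and 7.81% in that order, and TATAAA in 12%, 6.07% and 13.6%. The AP-2 letters GCCNNNGGC were in 30.8%, 26.3% and 16.6%, the GATA letters AGATAA in 5.98%, 5.5% and 11.2%, and the TEAD letters GGAATG in 12%, 11% and 14.7%. The E-box CACGTG was in 5.13%, 11% and 7.15%. The octamer ATGCAAAT, which Oct4 binds, was in none of the members' windows, 1.11% of the ranked and 1.74% of all. Both strands were searched, a gene can have several overlapping windows, the median GC content of the windows was 60.7% for the members, 62.0% for the ranked genes and 52.7% for all, and no test was made.

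Genes of skin and epithelium formed a further group. Sbsn (suprabasin) and Dmkn (dermokine), secreted proteins of the upper epidermis, lie 7.62 kb apart on chromosome 7. Sbsn measured 304 and 290 untreated against 1787 and 1694 with Dox in the Oct4-cKO line and 192 and 181 against 1232 and 1239 in the Sox2-cKO line. Dmkn measured 37.3 and 34.1 against 447 and 405, and 15.1 and 9.0 against 161 and 195. The tight junction genes Cldn3 and Marveld2 (tricellulin) were higher by 2.54 and 2.29 in Oct4-cKO cells and by 2.25 and 1.93 in Sox2-cKO cells. Cd82, a tetraspanin, went from 101 and 102 to 812 and 851 in the Oct4-cKO line.

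Secreted factors, receptors and signalling genes included Prlr, the prolactin receptor, at 5.32 and 14.4 untreated against 251 and 264 with Dox in the Oct4-cKO line and 23.8 and 27.9 against 217 and 245 in the Sox2-cKO line. Tgfa, a ligand of the epidermal growth factor receptor, was at 27.5 and 21.6 against 437 and 512, and at 30.3 and 36.9 against 250 and 257. Plxnb1, a semaphorin receptor, was higher by 3.19 and 3.02. Its ESC levels of 408 and 413 in the Oct4-cKO line and 466 and 435 in the Sox2-cKO line were above the untreated L-EPSC levels of 121 and 129 and of 135 and 130. The Dox libraries of both lines lay above the ESC levels too. Dkkl1 (soggy) was higher by 3.23 and 2.79, the orphan receptor gene Gpr146 by 2.68 and 2.82, and Arhgef5 by 2.89 and 3.09. Plat, tissue plasminogen activator, went from 209 and 246 to 1373 and 1287 in Oct4-cKO and from 85.3 and 87.8 to 436 and 468 in Sox2-cKO cells.

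Of the genes of the cell surface, membrane and cytoskeleton, Lgals1 (galectin-1) measured 1535 and 1568 untreated against 10320 and 10050 with Dox in the Oct4-cKO line and 967 and 918 against 5036 and 5092 in the Sox2-cKO line. The annexins Anxa4 and Anxa5, which bind membrane phospholipids with calcium, were higher by 2.51 and 1.77 in Oct4-cKO and by 2.31 and 1.72 in Sox2-cKO cells. Gsn (gelsolin), which severs actin filaments, was higher by 1.72 and 2.52, and the skeletal actin Acta1 by 1.98 and 2.57. Nacad, Shisal1, Fam83g, Sh3bp5 and Neurl1b, also among the 20 highest-ranked, differed by 2.62 to 3.60 in Oct4-cKO and by 2.48 to 3.80 in Sox2-cKO cells. Nacad went from 112 and 125 to 1422 and 1460 in the Oct4-cKO line and from 72.4 and 78.8 to 1063 and 1066 in the Sox2-cKO line.

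Apart from the promoter matches of Coro2a, Irx3 and Tdrd7, the 44 genes not named singly in the text were Rnf144b, Coro2a, Afap1l2, Snx9, Wscd2, Crybg3, Limd1, Gmip, Rgma, Gm11992, Arhgef16, Elmo3, Tmc4, Irx3, Megf9, Sri, Trpv2, Mvp, Tdrd7, Lgals8, Hspa4l, Tgm2, Lrrc8c, Acsl5, Fhdc1, Dap, Baiap3, Hlcs, Acot2, Ak3, Rhbdf1, Zfp628, Plcxd2, Akt1, Satb1, Gprc5c, Prkca, Vamp8, Fbxl19, Prmt2, Csrnp1, Srxn1, Trim8 and Gm2a. Their differences ran from 1.64 to 3.37 in Oct4-cKO (median 2.04), from 1.62 to 2.91 in Sox2-cKO (median 1.90) and from −0.44 to 0.57 in Nanog-cKO cells (median 0.25).

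The members lay on every autosome but chromosome 18. Chromosomes 7 and 11 held 14 each, while they carry 7.44% and 8.69% of the ranked genes. On chromosome 7 (NCBIM37), Ascl2 (150152727 to 150155169), Cdkn1c (150644255 to 150646955) and Phlda2 (150687450 to 150688446) lie on the minus strand within 1 imprinted region. On chromosome 11, Igtp spans 58013058 to 58021093 and Irgm2 58028530 to 58036282 on the plus strand.

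ESC libraries did not enter the choice, although the Dox and untreated libraries of the same lines did. The median untreated L-EPSC minus ESC difference of the members was 0.26 in the Oct4-cKO, −0.40 in the Sox2-cKO and 0.14 in the Nanog-cKO line. Over the ranked genes these medians were 0.08, 0.07 and 0.08. The members were chosen for a high Dox level and a large rise with Dox. Their Dox level lying above the ESC level was largely set by this choice and is given only as a description. The median Dox minus ESC difference was 2.72 in Oct4-cKO and 1.78 in Sox2-cKO cells.

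The other genes of the pathways are given from lists that hold 11 of the 100 genes. Their counts are to be read beside the shares of all tested genes called with Dox, given above. Of the 25 trophoblast genes, 21 were not members, and of these 16 rose with Dox in Oct4-cKO cells, and 15 rose and 2 fell in Sox2-cKO cells (limma). In Nanog-cKO cells 4 rose and 4 fell. Plac1, needed for placental development, rose by 4.57 ± 0.22 (SE), 4.39 ± 0.22 and 4.74 ± 0.22 in the 3 lines, so it rose with lowered Nanog too. In Nanog-cKO cells its mean was 1.04 normalized counts untreated, near the floor, against 55.1 with Dox. The size of that last difference therefore depends on the 1 added to counts. Gata2, another trophoblast GATA factor, rose by 4.03 ± 0.15, 1.86 ± 0.15 and 0.94 ± 0.15. Tfap2a, an AP-2 factor, rose by 3.74 ± 0.25 and 2.24 ± 0.25 in the first 2 lines, with a difference of 0.64 ± 0.25 in the third that was not called, and Peg10, an imprinted retrotransposon-derived gene of the placenta, rose by 3.19 ± 0.03, 3.76 ± 0.03 and 2.73 ± 0.03 in all 3. These 4 genes were picked for the largest called Oct4-cKO changes, so they do not stand for the whole list. The 2 that fell in Sox2-cKO cells are not among them. The summed level of the trophoblast list was 21830 to 22300 in untreated and 169800 to 171800 in Dox-treated Oct4-cKO libraries, and 14390 to 14650 against 137600 to 138200 in Sox2-cKO libraries, most of it Peg10. In the Nanog-cKO line it was 5434 to 5520 against 9155 to 9188. Its part in the members' levels was not tested, and in bulk RNA a change in the number of cells of a type and a change in RNA per cell cannot be told apart.

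In the epithelial junction list, 13 of 25 non-members rose and 1 fell in Oct4-cKO cells, and 9 rose and 3 fell in Sox2-cKO cells, with the splicing factor Esrp2 at 3.14 ± 0.14 and 2.26 ± 0.14 and the desmosomal Dsc2 at 2.27 ± 0.17 and 1.88 ± 0.17. In Nanog-cKO cells 5 rose and 8 fell, and Esrp2 and Dsc2 were among those that rose, by 1.66 ± 0.14 and 1.24 ± 0.17. Of 16 annexin and S100 non-members, 10 rose and 1 fell, and 8 rose and 2 fell, among them Anxa3 (2.65 ± 0.23 and 2.66 ± 0.23) and Anxa1 (2.57 ± 0.26 and 2.14 ± 0.26). In Nanog-cKO cells 2 rose and 3 fell, and the 2 were Anxa3 (1.26 ± 0.23) and Anxa1 (2.63 ± 0.26). Both were low there, Anxa3 with means of 12 untreated and 31 with Dox, and Anxa1 with 4.66 and 33.2. Of 28 actin cytoskeleton non-members, 12 rose and 3 fell in Oct4-cKO, 8 rose and 3 fell in Sox2-cKO, and 2 rose and 6 fell in Nanog-cKO cells. Of the 18 insulin-like growth factor genes, none of them a member, 5 rose and 5 fell, 6 rose and 3 fell, and 5 rose and 4 fell in the same order. They held the imprinted H19 and Igf2, which rose by 3.62 ± 0.10 and 3.16 ± 0.09 in Oct4-cKO and by 3.5 ± 0.10 and 3.49 ± 0.09 in Sox2-cKO cells. H19 and Igf2 also rose in Nanog-cKO cells, by 5.23 ± 0.10 and 3.17 ± 0.09. Of 24 primitive endoderm non-members, 1 rose and 13 fell in Oct4-cKO 3 rose and 11 fell in Sox2-cKO and 2 rose and 3 fell in Nanog-cKO cells. Of 21 pluripotency genes 16 and 18 fell in the first 2 lines, and 4 rose and 9 fell in Nanog-cKO cells. The nuclear receptor gene Esrrb fell by 6.36, by 3.17 and by 0.91 on the log2 scale in the 3 lines.

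The remaining lists held no members. Of all tested genes, 13% were called higher and 14.9% lower with Dox in the Oct4-cKO line. These shares were 12.2% and 11% in the Sox2-cKO line, and 5.17% and 4.77% in the Nanog-cKO line. In Oct4-cKO, then Sox2-cKO cells, 10 of 30 lysosomal genes rose and 1 fell, and 7 rose and 3 fell. Of 30 integrin and focal adhesion genes 7 rose and 5 fell, and 10 rose and 2 fell, and of 27 TGF-beta and BMP genes 7 rose and 8 fell, and 7 rose and 10 fell. Of 22 YAP and TEAD targets 3 rose and 8 fell, and 4 rose and 4 fell. Of 34 matrix glycoprotein and laminin genes 4 rose and 17 fell, and 7 rose and 9 fell. Of 18 p53 targets 1 rose and 7 fell in each line, of 18 mesoderm genes 1 (Eomes, by 0.94 ± 0.17) rose and 8 fell in Oct4-cKO and 9, Eomes among them, fell in Sox2-cKO cells, and of 17 neural genes 9 fell in each. Eomes, which is also a trophoblast marker, differed by −0.78 ± 0.17 in Sox2-cKO cells. Of 18 fibroblast genes, markers of feeder cells, 5 rose and 7 fell in Oct4-cKO cells and 5 fell in Sox2-cKO cells, with Lum and Twist2 at 0 reads in the Dox libraries of both lines. Of 10 macrophage genes 2 rose and 1 fell, and 1 rose and 1 fell. In Nanog-cKO cells the counts that rose and fell were 3 and 1 for lysosomal, 1 and 3 for integrin and focal adhesion, 2 and 4 for TGF-beta and BMP, 5 and 2 for YAP and TEAD, 2 and 7 for matrix, 1 and 2 for p53, 2 and 2 for neural and 2 and 3 for fibroblast genes, while 5 mesoderm and 2 macrophage genes fell.

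Before any Dox, the 3 ESC lines differed in these genes. These comparisons share libraries, and no library of theirs entered the choice. In Sox2-cKO against Nanog-cKO ESCs, 45 of the 100 genes were called higher and 8 lower, where 11.3% and 7.59% of all tested genes were called (ranked genes 11.3% and 6.53%). In Oct4-cKO against Sox2-cKO ESCs 6 were called higher and 45 lower, against 5.09% and 7.25% of all genes. In Oct4-cKO against Nanog-cKO ESCs 20 were called higher and 14 lower, against 8.75% and 6.13%. Median differences were 0.54, −0.46 and 0.13, beside −0.04, 0.02 and −0.02 for the ranked genes. The count of 6 was 3 without Oct4-cKO ESC replicate 1, without Oct4-cKO ESC replicate 2 or without Sox2-cKO ESC replicate 2. A fit of the 2 groups alone gave 5 in place of 20 and 25 in place of the second 45.

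Gata3 had the largest difference between the lines. It was at 105.0 and 104.9 in Sox2-cKO ESCs, 36.6 and 52.2 in Oct4-cKO ESCs and 4.18 and 1.12 in Nanog-cKO ESCs, higher by 5.00 ± 0.31 (SE, adjusted p = 1.74e-09 in limma) and by 3.75 ± 0.31 (adjusted p = 8.82e-08) than in the last. Peg3 was higher by 2.49 ± 0.04 in Sox2-cKO than in Nanog-cKO ESCs (adjusted p = 3.21e-16 in limma) and lower by a log2 difference of −2.46 ± 0.04 in Oct4-cKO than in Sox2-cKO ESCs. Sbsn was at 248 and 277 in Sox2-cKO, 68.0 and 60.0 in Oct4-cKO and 37.6 and 35.9 in Nanog-cKO ESCs. Cd82 was at 75.7 and 68.5 in Sox2-cKO and 8.36 and 8.97 in Nanog-cKO ESCs (2.92 ± 0.23, adjusted p = 3.18e-08 in limma). Acta1 was at 17.2 and 13.9 in Sox2-cKO ESCs, and the Oct4-cKO and Nanog-cKO ESC libraries held 3 reads or fewer each.

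Extl1, a glycosyltransferase of the exostosin family, and Plat were higher in Oct4-cKO than in Nanog-cKO ESCs, by 1.90 ± 0.23 and 1.70 ± 0.27. Genes lower outside the Nanog-cKO line included Cited4, a CBP-binding co-activator, at 321 and 373 in Nanog-cKO, 39.7 and 54.2 in Oct4-cKO and 73.7 and 70.2 in Sox2-cKO ESCs. Phlda2 was lower in Sox2-cKO than in Nanog-cKO ESCs by a log2 difference of −1.78 ± 0.07 (adjusted p = 5.2e-12 in limma), and Niban1 by −1.21 ± 0.08. In Oct4-cKO against Nanog-cKO ESCs Bin3, a membrane-curving BAR domain gene, was lower by −1.45 ± 0.19 and Htatip2 by −1.20 ± 0.17. Between the Oct4-cKO and Sox2-cKO ESCs, Akr1b8, an aldo-keto reductase, was higher by 1.30 ± 0.13, H2-D1 by 1.06 ± 0.12 and 2310030G06Rik by 0.92 ± 0.29 in Oct4-cKO, and C1qtnf6 was lower by −2.66 ± 0.23. The call of 2310030G06Rik was lost without any 1 of the 4 libraries. In a fit of the 2 groups alone, the calls of Gata3, Extl1, Plat and Htatip2 in Oct4-cKO against Nanog-cKO ESCs were lost, as was that of 2310030G06Rik.

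In wild-type J1 cells, where no factor was removed, the genes moved in both directions on conversion to EPSCs. In D-EPSCs against ESCs, 29 were called higher and 14 lower, where 10.8% and 9.98% of all tested genes were called (6.73% and 9.05% of the ranked genes). In L-EPSCs against ESCs, 18 were called higher and 24 lower, against 8.8% and 11.5% of all genes (6.76% and 9.29% of the ranked). In L-EPSCs against D-EPSCs 8 were called higher and 25 lower, against 4.8% and 8.58% (3.51% and 4.75%). Medians were 0.25, −0.12 and −0.32, and 16 of the genes were called in none of the 6 comparisons. The median of −0.12 was −0.06 without ESC replicate 1, −0.21 without ESC replicate 2 and −0.21 over members with a mean of at least 10. The 3 J1 comparisons share libraries. Without L-EPSC replicate 1 the count of 18 was 10, and without ESC replicate 2 the count of 24 was 15. Without D-EPSC replicate 1 the counts of 8 and 25 were 2 and 13, without D-EPSC replicate 2 they were 4 and 12, and the 8 became 4 and 5 without L-EPSC replicate 1 and replicate 2.

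**Figure D4:**
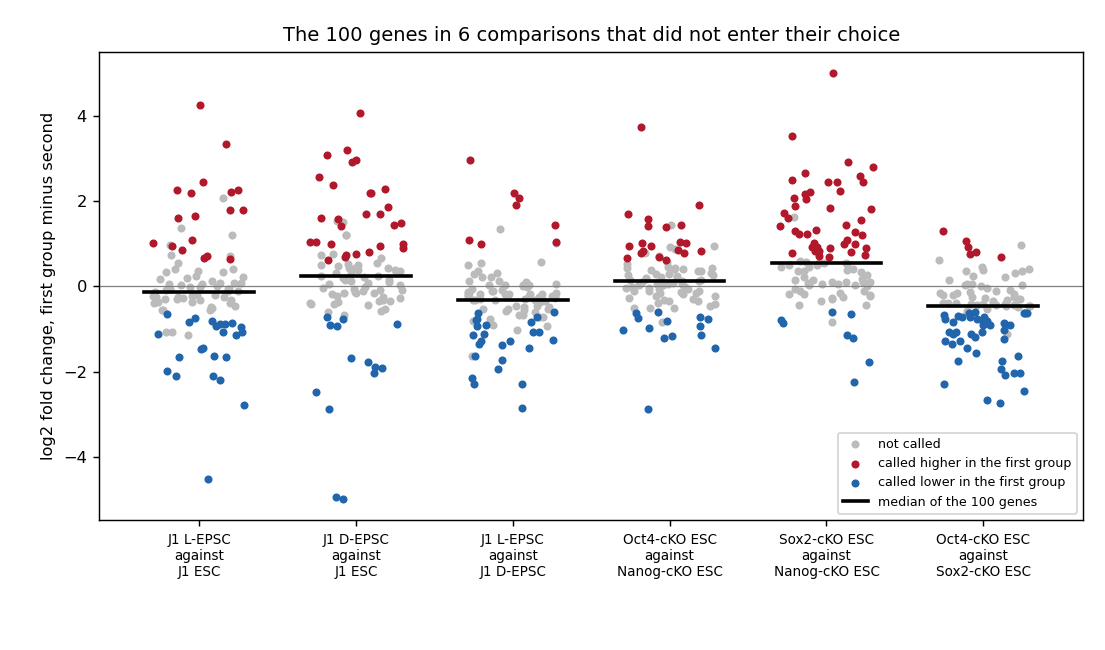
Log2 fold change, first group minus second, of the 100 genes in the 6 comparisons that did not enter their choice, one dot per gene, coloured by whether limma called it, with black bars at the medians. The bar is highest in Sox2-cKO against Nanog-cKO ESCs (0.54) and lowest in Oct4-cKO against Sox2-cKO ESCs (−0.46).

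Phlda2 again had a large difference. It was at 13.5 and 17.5 in J1 ESCs, 83.7 and 63.6 in D-EPSCs and 329 and 292 in L-EPSCs, higher in L-EPSCs than in ESCs by 4.25 ± 0.22 (adjusted p = 3.74e-06 in limma) and than in D-EPSCs by 2.07 ± 0.22 (adjusted p = 0.000318 in limma). Cdkn1c was higher in both EPSCs, by 1.09 ± 0.22 in L-EPSCs and 1.42 ± 0.22 in D-EPSCs, and Peg3 by 1.05 ± 0.07 in D-EPSCs. Dio3 was at 29.7 and 31.4 in ESCs, had 0 reads in both D-EPSC libraries, at least 10.2-fold lower with 3 reads per library as the floor, and was at 2.06 and 5.75 in L-EPSCs, where the call against ESCs was lost without either ESC library. Ascl2 stayed at 3.06 to 12.7 in all 6 libraries, where a difference was not detectable at this depth.

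Kif26a, an atypical kinesin, was at 20.7 and 12 in ESCs, 151 and 155 in D-EPSCs and 165 and 172 in L-EPSCs, higher by 3.20 ± 0.25 and 3.34 ± 0.25. Prlr was at 1.80 and 0.92 in ESCs, which is 2 reads and 1 read, 37.8 and 38.2 in D-EPSCs and 7.20 and 6.90 in L-EPSCs, and the L-EPSC level was below the D-EPSC level by a log2 difference of −2.28 ± 0.45 (adjusted p = 0.00675 in limma), a call that was lost without either D-EPSC library. Shisal1 and Cdcp1 had 0 reads in both ESC libraries. Shisal1 was at 8.17 and 6.85 in D-EPSCs, at least 2.75-fold higher, and Cdcp1 at 8.23 and 2.30 in L-EPSCs, at least 1.93-fold higher. Both calls were lost without either ESC library, and that of Shisal1 also without D-EPSC replicate 1.

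Gata3 was lower in both EPSCs than in ESCs. It was at 53 and 61.8 in J1 ESCs, 6.13 and 7.83 in D-EPSCs (−2.88 ± 0.44, adjusted p = 0.00139 in limma) and 2.06 and 1.15 in L-EPSCs, the last being 2 reads and 1 read. Cldn3 was at 71.0 and 50.7 in ESCs, 0 and 2.94 in D-EPSCs and 11.3 and 18.4 in L-EPSCs. Rtn4rl1, a Nogo receptor-like gene, was lower in L-EPSCs than in ESCs by a log2 difference of −2.20 ± 0.26 (adjusted p = 0.000311 in limma). Sdk2, a synaptic adhesion gene, differed between L-EPSCs and D-EPSCs by −2.28 ± 0.57, and Acta1 was at 16.3 and 18.6 in D-EPSCs against 2.06 and 1.15 in L-EPSCs. The call of Sdk2 was lost without any 1 of the 4 libraries, and that of Cldn3 in D-EPSCs against ESCs without either ESC library. In a fit of the 2 groups alone the calls of Cdcp1 in L-EPSCs against ESCs and of Cldn3, Dio3 and Sdk2 in L-EPSCs against D-EPSCs were lost.

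The 5 genes known from the interferon response had lower means in J1 L-EPSCs than in the other J1 groups. Irgm2 was at 498 and 505 in ESCs, 683 and 671 in D-EPSCs and 250 and 268 in L-EPSCs, lower in L-EPSCs than in ESCs by a log2 difference of −0.95 ± 0.07 (adjusted p = 1.82e-05 in limma), and Igtp was lower by −1.06 ± 0.07. H2-D1 was at 4923 and 5087, 3380 and 3299, and 1544 and 1619 in the same order, lower by −1.66 ± 0.04 in L-EPSCs than in ESCs (adjusted p = 6.07e-08 in limma). Bst2 was at 4677 and 4785, 4465 and 4370, and 3306 and 3160, and Ticam1 at 168 and 154, 143 and 118, and 98.7 and 123, and neither was called in a J1 comparison. ESCs were thus between the EPSCs for Irgm2 and Igtp and had the highest means for the other 3. The summed levels of marker genes of other cells also differed between these groups. All 20 fibroblast markers had reads in every J1 group, and their summed level was 109100 to 111500 in ESC, 72410 to 72460 in D-EPSC and 27360 to 27750 in L-EPSC libraries, led by Col1a1. The sum of 10 macrophage markers was 4055 to 4136 in ESC, 21420 to 21650 in D-EPSC and 17030 to 17080 in L-EPSC libraries, led by Lyz2 in the EPSCs. Their part in the members' J1 values was not tested. In the tet-off libraries the fibroblast sum was 1094 to 2738.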

How the data were processed

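The deposited tables hold normalized signal, which the authors made as gene read counts divided by a size factor. Per the labels, the submitters' processing notes name Trim Galore 0.6.4, STAR 2.7.9a, HTSeq 0.11.2 and DESeq2 with mouse build NCBIM37 (mm9). The strand setting is not given in the sources used here, so overlapping genes cannot be told apart. Dividing by the value of 1 read gave whole reads for 100% of values in 24 libraries (tolerance 0.1). The 2-read minimum was applied to a gene's total over its table, and the rest were tested with limma 3.58.1 (R 4.3.3, trend) on log2(normalized signal + 1), all groups of a table in 1 fit, Benjamini-Hochberg over all genes, called at adjusted p below 0.05 and a log2 fold change above 0.6. The members and gene lists were chosen with earlier results of these data known. Genes named are the 20 highest-ranked, members of lists, the 3 most changed per direction in each comparison, those beside rank 100 and, per list, at most 4 non-members with a mean of at least 100 and the largest called Oct4-cKO change. Others named were chosen after their values were seen. Alternatives were edgeR 4.0.16 and DESeq2 1.42.0 on recovered reads, scaling, filters, pseudocount, threshold and left-out libraries. On simulated data the fit recovered the size and sign of changes but missed some, mostly at lower levels in the J1 simulation. The changed genes were drawn only above a minimum mean, with the same small spread for all genes. Recovery at levels of a few reads was thus not examined. The fit also called some unchanged genes, all at very low levels. The criteria for this simulation test were revised after its first results were seen.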

Additional observations from a re-analysis of the deposited data

Results flagged for a closer look

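Mxd4, a repressor of the Myc network, was the member whose 2 EPSC types moved in opposite directions from the same J1 ESCs. It was at 216.6 and 190.0 normalized counts in ESCs, 322 and 390 in D-EPSCs and 90.5 and 93.1 in L-EPSCs. The difference from ESCs was 0.80 ± 0.13 (SE, adjusted p = 0.00183 in limma) in D-EPSCs and −1.14 ± 0.13 (adjusted p = 0.000266) in L-EPSCs, and the direct difference between L-EPSCs and D-EPSCs was −1.94 ± 0.13 (adjusted p = 2.98e-05 in limma), with no overlap between the libraries of any pair of groups. Both fits share the ESC libraries. The fibroblast and macrophage marker sums also differed between these groups, and their part in the values was not tested.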

How the results depend on the processing

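The members' counts in the 6 comparisons were recomputed 156 times, and 134 values stayed within 1.5 times. With a threshold of 1 on the log2 scale, the count of members was 15 lower in J1 L-EPSC against ESC, 9 lower in D-EPSC against ESC, 10 higher and 6 lower in Oct4-cKO against Nanog-cKO ESC, 4 lower in Sox2-cKO against Nanog-cKO ESC, and 2 higher and 24 lower in Oct4-cKO against Sox2-cKO ESC. Fits of the 2 groups alone gave 3 higher in J1 L-EPSC against D-EPSC, 5 higher in Oct4-cKO against Nanog-cKO ESC and 25 lower in Oct4-cKO against Sox2-cKO ESC. A pseudocount of 0.1 gave 5 higher in J1 L-EPSC against D-EPSC. The cause was not tested. Leaving out 1 library at a time gave 10 to 13 higher and 15 to 18 lower in J1 L-EPSC against ESC, 2 to 5 higher and 12 to 19 lower in L-EPSC against D-EPSC, and 3 to 4 higher in Oct4-cKO against Sox2-cKO ESC, where the lone library of a group is assumed to vary like the others. Counts by edgeR, DESeq2, TMM scaling, median centring and a mean of at least 10 stayed within 1.5 times in all 12. On the recovered reads edgeR called 18 of the genes higher and 24 lower in J1 L-EPSC against ESC, 30 and 13 in D-EPSC against ESC, 7 and 27 in L-EPSC against D-EPSC, 21 and 14 in Oct4-cKO against Nanog-cKO ESC, 46 and 8 in Sox2-cKO against Nanog-cKO ESC, and 6 and 46 in Oct4-cKO against Sox2-cKO ESC.

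The deviations of samples with the same replicate number correlated at −0.0164 to 6.51e-05, with genes averaging below 10 left out. So small a correlation does not show whether such samples had a culture or a preparation in common, and the labels do not say. With the replicate number as a block, the count of members called higher was 27 in J1 D-EPSC against ESC, 6 in L-EPSC against D-EPSC and 21 in Oct4-cKO against Nanog-cKO ESC, and all 12 counts stayed within 1.5 times. For the largest differences by gene, 429 alternative values kept their call and 36 kept the direction but lost it, none reversing, and fits of the 2 groups alone lost Gata3, Extl1, Plat and Htatip2 in Oct4-cKO against Nanog-cKO ESC, 2310030G06Rik in Oct4-cKO against Sox2-cKO ESC, Cdcp1 in J1 L-EPSC against ESC, and Cldn3, Dio3 and Sdk2 in L-EPSC against D-EPSC. Other forms of the choice shared 72 to 99 of the 100 genes.

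Low levels limit the J1 comparisons most: in L-EPSC against ESC, 7 members had 3 reads or fewer in both ESC libraries only, 3 in both L-EPSC libraries only and 3 in both groups. A member not called at such levels is not shown not to differ.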
